A study of Mus musculus with 6 samples.

Results

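The noncoding domain examined here is a stretch of mouse chromosome 11 between Myocd and Map2k4. Its members were chosen by position, as the rows of the authors' deposited table that overlap 65.25 to 65.8 Mb of that chromosome (mm10), which made 75 of 34518 features. Of these, 65 lay in the interval from 65.4059 to 65.65 Mb and 10 in its flanks, 6 on the side of Myocd and 4 on the side of Map2k4. Each library came from the left atria of mice of the outbred CD1 stock, taken as adults. In 3 libraries the mice overexpressed FOG2 (FOG2_OE) and in 3 they were wild type (WT). The hearts are marked DTG and NTG in the labels, and mice of both groups had been reared without doxycycline for 1 week. The promoter that drove FOG2 and the number of animals behind a library are not given in the sources used here. Total RNA was depleted of ribosomal and of polyadenylated RNA before sequencing.

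Myocd encodes myocardin, a coactivator that works with the DNA-binding factor SRF to switch on genes of heart and smooth muscle. Map2k4 encodes a kinase that phosphorylates the stress kinases JNK and p38. FOG2, the product of Zfpm2, is a zinc finger cofactor of GATA factors in the heart. Long noncoding RNAs and unstable transcripts of enhancers often lack a poly(A) tail or are poorly polyadenylated, and the space between muscle genes can hold many of them.

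Effective library sizes, computed from the deposited values, ran from 71180401 to 84907173 reads. The feature MSTRG.29831, inside the Zfpm2 gene body, had a fitted level of 416 CPM (counts per 1000000 of the effective library) in FOG2_OE and 0.484 CPM in WT, which matches the labels in direction. The columns named for the samples are the authors' model fits, which within a group were constant multiples of each other. They therefore show no spread between replicates, and each level below is the value fitted to a group of 3 libraries. The standard errors (SE) are those implied by the likelihood ratio of the authors' deposited table. The interval itself was selected on the measured fold changes: it had been drawn around lower calls of this same comparison (likelihood ratio test, adjusted p under 0.05), joined over gaps of up to 100 kb. Its calls and fold changes are therefore given as a description, with no test. Every flank feature lay within 100 kb of the interval, so that a flank free of lower calls follows from how the interval was drawn. Fewer cells of a type and less RNA per cell cannot be told apart in such bulk samples.

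The upstream end of the interval on the minus strand fell at an annotated start of transcription. All 65 features of the interval are listed on the minus strand, and the one that reaches its upstream end is MSTRG.13903 (7608 bases from chromosome 11 position 65642427 upward). RefSeq places the long noncoding RNA gene Gm30786 on the minus strand at chr11:65642412-65660361, so that the downstream end of MSTRG.13903 lay 15 bases from that of the gene. RefSeq lists 3 starts for Gm30786. The upstream end of MSTRG.13903 lay 182 bases upstream of the start at 65649852 and 211 bases upstream of the start at 65649823. It lay 10327 bases downstream of the farthest start, at 65660361. The promoter windows of a nearer start (chr11:65649803-65650102) and of the farthest one (chr11:65660312-65660611) are printed because they show where the listed feature begins. Both are RefSeq sequence of GRCm38.p6, minus strand, 5′ to 3′, from 250 bases before the start to 50 after it, and capitals mark bases covered by MSTRG.13903.
Gm30786, start at 65649852: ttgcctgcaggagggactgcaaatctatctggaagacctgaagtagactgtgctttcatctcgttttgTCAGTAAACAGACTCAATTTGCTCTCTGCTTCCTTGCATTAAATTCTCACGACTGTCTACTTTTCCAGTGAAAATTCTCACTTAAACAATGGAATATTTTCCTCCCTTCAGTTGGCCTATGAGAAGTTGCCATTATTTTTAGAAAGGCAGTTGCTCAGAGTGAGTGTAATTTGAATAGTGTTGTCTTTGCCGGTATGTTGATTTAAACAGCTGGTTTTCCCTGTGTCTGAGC
Gm30786, start at 65660361: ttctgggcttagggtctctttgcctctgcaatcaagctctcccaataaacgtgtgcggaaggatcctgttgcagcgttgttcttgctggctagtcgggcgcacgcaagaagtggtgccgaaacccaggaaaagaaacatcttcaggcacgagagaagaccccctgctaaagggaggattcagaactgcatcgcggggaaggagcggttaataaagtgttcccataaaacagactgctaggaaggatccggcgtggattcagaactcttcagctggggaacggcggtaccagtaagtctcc
The nearer window has 232 of its 300 bases in capitals and the farther one has 0, and no listed feature covered the farther start. Neither window held, on either strand, the GATA factor motif GATAA, the T-box motif AGGTGT or the CArG box of SRF. Among all 32851 promoter windows of RefSeq, 25.4% held GATAA, 13.7% held AGGTGT and 1.63% held a CArG box. The window of the start at 65649852 had 40.7% G and C bases and that of the farthest start 53.0%, against a median of 52.7% over all windows.

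MSTRG.13903 was the most abundant feature of the interval in both groups. Its fitted counts were 387, 352 and 413 in FOG2_OE replicates 1 to 3 and 1751, 1929 and 2024 in WT replicates 1 to 3. As a level this was 4.86 CPM in FOG2_OE, against 24.6 CPM in WT, 5.06-fold lower in FOG2_OE, or a log2 ratio of -2.34 (implied SE 0.24). Per length it stood at 0.639 CPM per kb in FOG2_OE and 3.23 CPM per kb in WT. It made up 48.7% of the summed level of the interval in FOG2_OE and 25.6% in WT. Among the 41 features of the interval with at least 20 fitted counts per WT library, MSTRG.13903 had the log2 ratio nearest to 0. The RefSeq span of Gm40026, a long noncoding RNA gene on the plus strand, begins 783 bases from the Gm30786 start at 65649852, while the start that the RefSeq promoter sequences list for it, at 65656373, lies 6.52 kb from it. MSTRG.13899 (chr11:65667814-65669082), listed on the plus strand inside Gm40026, had 0.610 CPM in FOG2_OE, against 0.350 CPM in WT (log2 ratio 0.80, implied SE 0.52). That feature was not called in the authors' deposited table (adjusted p = 0.451).

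**Figure D1:**
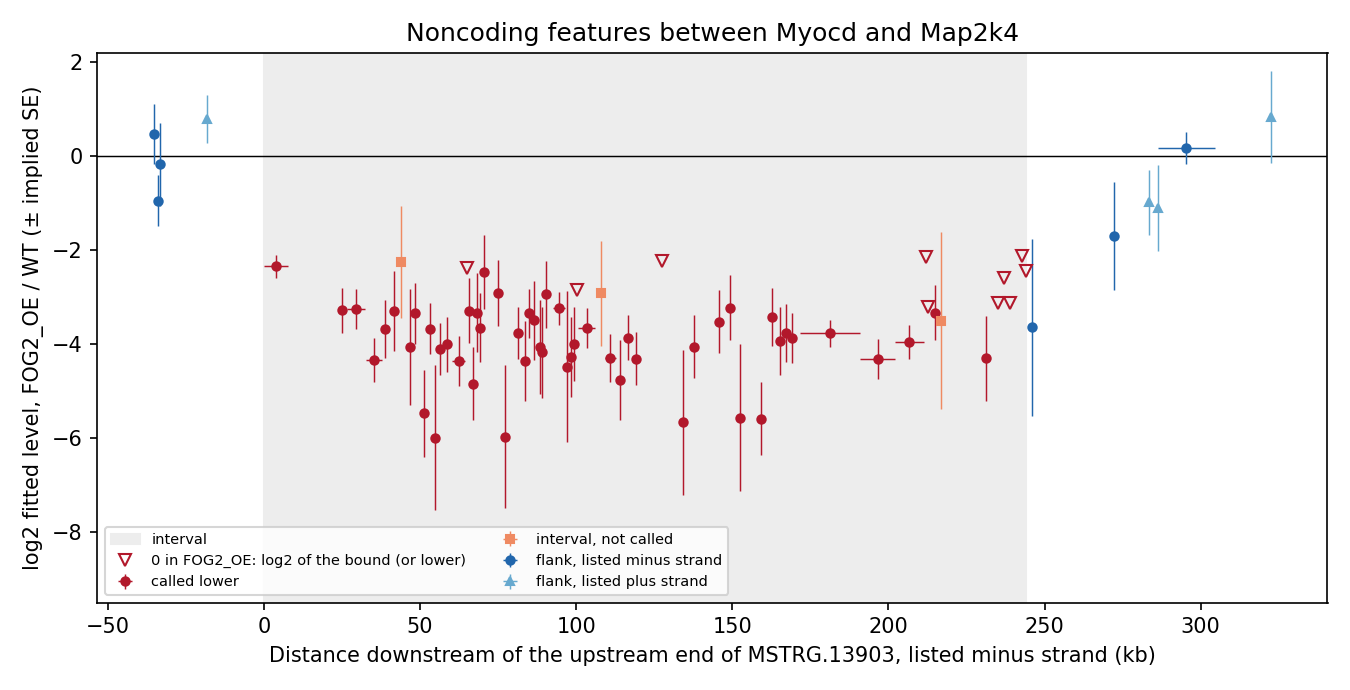
The log2 ratio of fitted levels, FOG2_OE over WT, is plotted for the features of the interval (grey) and its flanks against the distance in kb from the upstream end of MSTRG.13903, with Map2k4 to the left and Myocd to the right. Points show the ratio with its implied SE and horizontal bars the length of the feature; open triangles mark 10 features at 0 in FOG2_OE, drawn at the log2 of their bound, and features of the interval lie at -2.26 or below wherever a ratio could be computed.

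The interval was 244 kb long, and downstream of MSTRG.13903 it continued for 237 kb as a chain of mostly short, scarce features. The 65 features covered 117 kb, or 47.8% of the interval, with a median length of 743 bases and a range of 103 to 19156. The median gap between neighbours was 1.05 kb, and 2 gaps exceeded 10 kb, the larger of them the 16.2 kb just downstream of MSTRG.13903. With 2 minus-strand features of the flanks next to the interval, they formed a run of 67 consecutive features on the listed minus strand. This ranked number 16 in length among 7807 such runs in the whole table, whose median was 2 features and whose longest was 231. The TruSeq kit of the labels' protocol would leave reads without strand. In the flanks, 1 pair of features listed on opposite strands over the same bases had unlike levels per length, averaged over 214 and 18244 bases. MSTRG.14003 (plus strand) had 0.376 CPM per kb in WT and MSTRG.14002 (minus strand), which spans it, 8.95. How the listed strand was assigned was not tested. Whether the features are pieces of 1 transcript was not tested, and they cannot be counted as separate observations.

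The level per length varied along the interval in both groups. Over the 41 features with at least 20 fitted counts per WT library, the fitted level ran from 0.00777 to 0.639 CPM per kb in FOG2_OE, with a median of 0.0392. In WT it was 0.349 to 3.23 CPM per kb, with a median of 0.548. Across all 65 features, length and WT level moved together (Spearman rho 0.99, Pearson r 0.97 on log2 values, n = 65 features of the same libraries). The longer features therefore carried most of the signal, and the 12 most abundant held 87.4% of the summed level in FOG2_OE and 79.8% in WT.

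**Figure D2:**
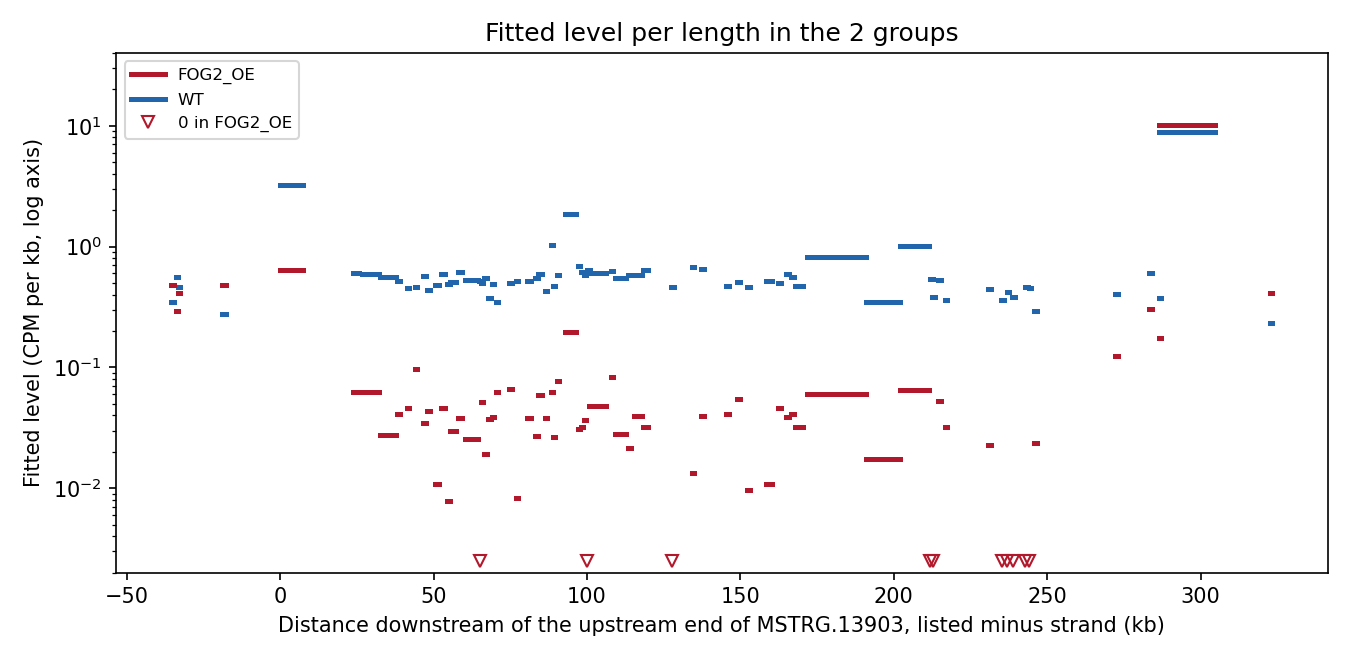
Each bar is a feature drawn over its own length (short ones widened to be visible), with its fitted level in CPM per kb on a log axis, in FOG2_OE (red) and WT (blue), against the distance from the upstream end of MSTRG.13903. Within the interval the FOG2_OE bars lie below the WT bars throughout, with medians of 0.0392 and 0.548 CPM per kb for the 41 more abundant features, while the bars of MSTRG.14002 at the far right, at 10.1 and 8.95 CPM per kb, nearly coincide.

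The longest features of the chain lay 172 to 211 kb downstream of the start. MSTRG.13861 (chr11:65459150-65478305) had fitted counts of 91.6, 83.3 and 97.6 in FOG2_OE replicates 1 to 3, against 1117, 1230 and 1291 in WT replicates 1 to 3. It stood at 1.15 CPM in FOG2_OE, against 15.7 CPM in WT (log2 ratio -3.77, implied SE 0.30). Its neighbour MSTRG.13859 (chr11:65438708-65447959) had 0.604 CPM in FOG2_OE, against 9.38 CPM in WT, 15.5-fold lower. Between them, MSTRG.13860 (chr11:65448003-65459073) had 0.194 CPM in FOG2_OE, against 3.87 CPM in WT, 19.9-fold lower. These 3 long features thus had log2 ratios of -4.31 to -3.77, all below that of MSTRG.13903. MSTRG.13860 was thinner than its neighbours, at 0.349 CPM per kb in WT, whereas MSTRG.13859 reached 1.01.

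In the middle of the interval MSTRG.13870 (chr11:65553758-65557334) stood out by its level. It had 0.706 CPM in FOG2_OE, against 6.66 CPM in WT, 9.44-fold lower, and 1.86 CPM per kb in WT, the second highest level per length of the 41 features. Close to it, MSTRG.13864 had 0.265 CPM in FOG2_OE, against 3.33 CPM in WT. MSTRG.13863 had 0.1003 CPM in FOG2_OE, against 1.96 CPM in WT, and MSTRG.13858 had 0.110 CPM in FOG2_OE, against 1.59 CPM in WT. Their log2 ratios ran from -4.29 to -3.66, with implied SEs of 0.42 to 0.51.

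Nearer to the Gm30786 start, the abundant features were 9.52-fold to 20.5-fold lower in FOG2_OE. MSTRG.13896, the first after the 16.2 kb gap, had 0.132 CPM in FOG2_OE, against 1.28 CPM in WT. MSTRG.13897 had 0.351 CPM in FOG2_OE, against 3.34 CPM in WT, and MSTRG.13898 had 0.145 CPM in FOG2_OE, against 2.94 CPM in WT. MSTRG.13892, farther in, had 0.104 CPM in FOG2_OE, against 2.14 CPM in WT. RefSeq annotates the snRNA gene Gm26128 on this stretch, at chr11:65626394-65626503, and no listed feature covered it. The other 53 features of the interval had 0 to 0.0842 CPM in FOG2_OE and 0.0486 to 1.23 CPM in WT.

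**Figure D3:**
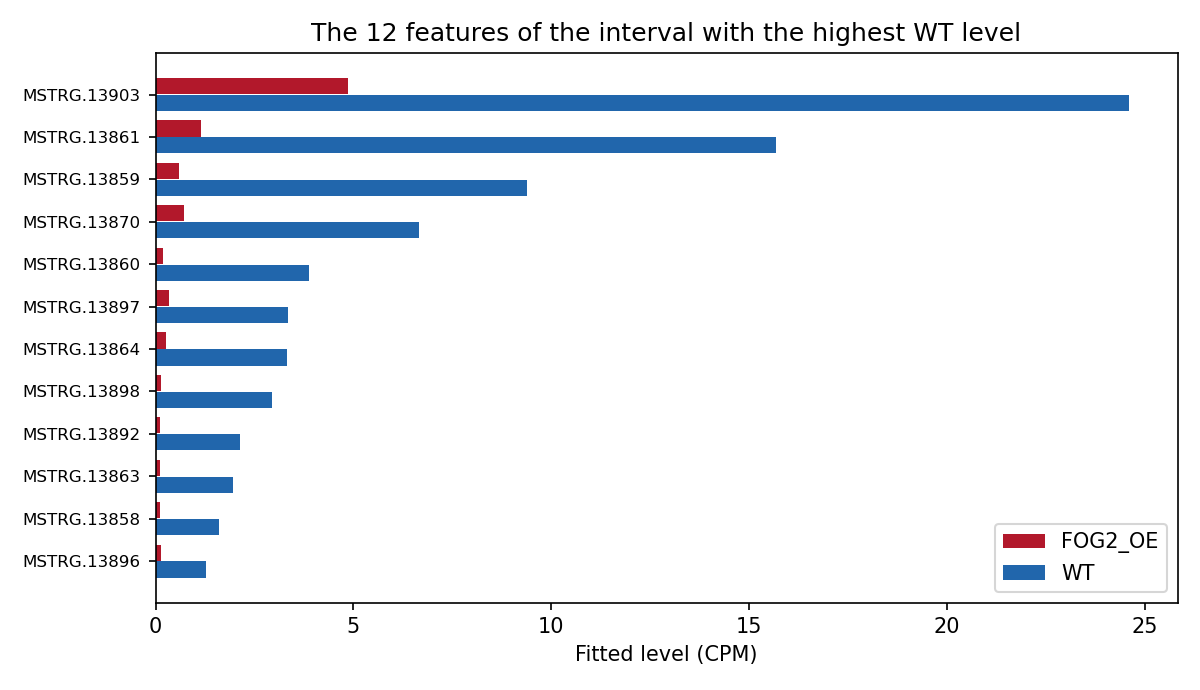
Bars give the fitted level in CPM, on a linear axis from 0, of the 12 features of the interval with the highest WT level, FOG2_OE above WT in each pair. MSTRG.13903 is the most abundant in both groups, at 4.86 CPM in FOG2_OE, against 24.6 CPM in WT, and the remaining 11 are all at or below 1.15 CPM in FOG2_OE.

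The size of the difference varied among the features. Over the 41 more abundant features the mean log2 ratio, weighted by the implied SEs, was -3.66, and 39 of them lay within 2 implied SEs of it. All features share the same libraries, and how their variation goes together cannot be seen in fitted values. The implied SEs therefore do not test one feature against another. By counting error alone, which leaves out the spread between libraries, some neighbours were apart. As an example, MSTRG.13898 was 20.2-fold lower in FOG2_OE (14.3 to 29.3) and MSTRG.13897 9.52-fold lower (7.58 to 12.1). Among the lowest was MSTRG.13848, with a log2 ratio of -5.58 (implied SE 0.78), and this feature was named after its values were seen. MSTRG.13848 had 0.021 CPM in FOG2_OE, about 5 counts over the group, and 1.01 CPM in WT. Distance from the start and log2 ratio had a weak correlation, given as a description (Spearman rho -0.10, Pearson r -0.05, n = 41 features that share libraries, or rho -0.03 without MSTRG.13903).

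By stretches of 50 kb, the fold was smallest next to the start. Over the first 50 kb the features added up to 5.61 CPM in FOG2_OE, against 33.5 CPM in WT. This was 5.97-fold lower in FOG2_OE (95% counting interval 5.63 to 6.33, Clopper-Pearson formula on fitted sums). Without MSTRG.13903 this stretch was 11.8-fold lower (10.2 to 13.9). The next stretches were 12.5-fold, 15.2-fold, 15.0-fold and 16.1-fold lower in FOG2_OE, the last with an interval of 13.7 to 19.0. These intervals cover counting error only, not the spread between mice. The whole interval added up to 9.98 CPM in FOG2_OE, against 96.2 CPM in WT, and without MSTRG.13903 to 5.12 CPM in FOG2_OE, against 71.6 CPM in WT, a fold of 14.0 in place of 9.63.

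**Figure D4:**
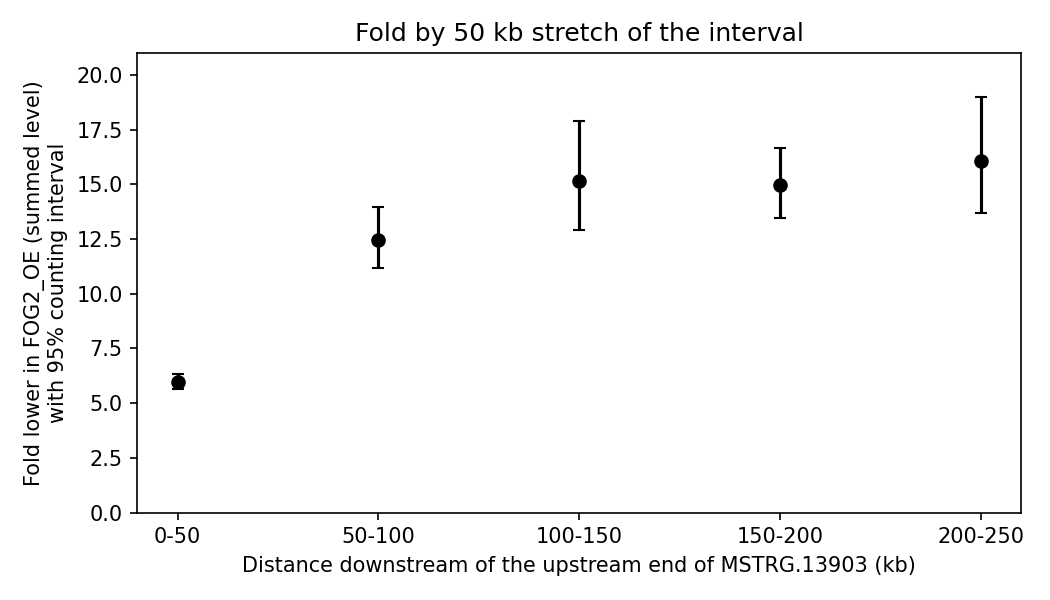
Points give the factor by which the summed fitted level was lower in FOG2_OE than in WT, for stretches of 50 kb counted from the upstream end of MSTRG.13903, the last ending with the interval at 244 kb; bars are 95% counting intervals. The stretch that holds MSTRG.13903 is at 5.97 and the others lie between 12.5 and 16.1.

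Toward its downstream end the features covered less of the interval. They covered 28.4% of the stretch beyond 200 kb, against 35.3% to 75.9% of the other 50 kb stretches. Their WT level per covered kb, 0.866 CPM, was within the 0.581 to 1.43 CPM of the other stretches. Across the whole table of 34518 features, the fitted level was 0 for 370 in FOG2_OE and for 151 in WT. A feature at 0 in a group has all its reads in the other, so that its direction is fixed beforehand. Within the interval, 10 of the 65 features were at 0 in FOG2_OE, and 7 of them lay more than 200 kb from the start. They were 103 to 307 bases long and had 0.055 to 0.118 CPM in WT, so that taking 3 counts over the FOG2_OE group as the floor, they were at least 4.34-fold to at least 9.29-fold lower in FOG2_OE. The last feature, MSTRG.13831 (152 bases, up to position 65406008), stood at 0 in FOG2_OE and 0.0687 CPM in WT, at least 5.43-fold lower. Another 12 features had about 1 to 3 counts over the FOG2_OE group, so that their ratios are imprecise. With the features at 0 set to their bound, the median log2 ratio of the interval was -3.67, against -0.22 over all features of the table.

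In the authors' deposited table, 62 of the 65 features passed as lower in FOG2_OE and 0 as higher, where 4.65% of all features were called lower and 1.16% higher. With the median ratio of all features centred at 1, 61 passed as lower and 0 as higher, where 3.47% of all features were lower and 1.62% higher. When the test allowed for an uncertain dispersion, through an F reference on 10 residual degrees of freedom, 42 passed as lower and 0 as higher, where 1.07% of all features were lower and 0.203% higher. On 4 residual degrees of freedom, those of the 6 libraries alone, 0 passed in the interval, where 0.0% of all features were lower and 0.0% higher. The interval was drawn from these calls, so that nothing is read from the count. The 41 features with at least 20 fitted counts per WT library were all among the called ones. Adjusted p-values just inside the threshold in the authors' deposited table belonged to MSTRG.13842 (adjusted p = 0.0244), MSTRG.13833 (0.0274) and MSTRG.13878 (0.0296). MSTRG.13842 and MSTRG.13833 stood at 0 in FOG2_OE, and MSTRG.13878 had 0.0336 CPM in FOG2_OE, against 0.186 CPM in WT. Those just outside it, by the same authors' deposited table, belonged to MSTRG.13862 (adjusted p = 0.0733), MSTRG.13832 (0.241) and MSTRG.13837 (0.275). MSTRG.13862 had 0.0127 CPM in FOG2_OE, against 0.0958 CPM in WT, 7.52-fold lower with a counting interval of 2.27 to 39.0. MSTRG.13837 had about 1 count over the FOG2_OE group and was 11.3-fold lower (1.67 to 454). MSTRG.13890 was the remaining feature of the interval that was not called, and it had the smallest fall of the interval in ratio, a log2 ratio of -2.26.

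In the flanks 0 of 10 features were called in the authors' deposited table (likelihood ratio test), where 4.65% of all features were called lower and 1.16% higher. The absence of lower calls there follows from how the interval was drawn. By the unadjusted p of the same test 1 flank feature was under 0.05, and 6 of the 10 had a log2 ratio under 0. On the side of Map2k4, 3 minus-strand features lay between the interval and the gene. MSTRG.13900 had 0.180 CPM in FOG2_OE, against 0.129 CPM in WT, MSTRG.13902 had 0.118 CPM in FOG2_OE, against 0.226 CPM in WT, and MSTRG.13901 had 0.0541 CPM in FOG2_OE, against 0.0609 CPM in WT. Their log2 ratios of -0.94 to 0.47, with implied SEs of 0.55 to 0.88, were above every ratio of the interval. That of MSTRG.13901, -0.17, changed sign when the median ratio of all features was centred at 1. The 4 features of this flank added up to 0.962 CPM in FOG2_OE, against 0.767 CPM in WT.

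On the side of Myocd the low ratios continued for a short distance past the interval. MSTRG.13832 (chr11:65404131-65404313), 1.54 kb beyond it and on the same listed strand, had 0.00431 CPM in FOG2_OE, against 0.0538 CPM in WT, 12.5-fold lower with a counting interval of 1.89 to 499. It was the flank feature with an unadjusted p under 0.05. MSTRG.13829, farther on, had 0.0207 CPM in FOG2_OE, against 0.0673 CPM in WT (log2 ratio -1.70, implied SE 1.15). The plus-strand MSTRG.13830 had 0.0806 CPM in FOG2_OE, against 0.159 CPM in WT. The depth does not show where the low ratios end, since these features rest on at most 37 counts in a group.

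The most abundant feature of the window, MSTRG.14002 (chr11:65345538-65363781), had about the same level in both groups. Its fitted counts were 14696, 13366 and 15661 in FOG2_OE replicates 1 to 3 and 11619, 12798 and 13426 in WT replicates 1 to 3. It stood at 184 CPM in FOG2_OE, against 163 CPM in WT, a log2 ratio of 0.18 (implied SE 0.34), and was not called in the authors' deposited table (adjusted p = 0.857). It lies on the listed minus strand inside Gm12295, a long noncoding RNA gene that GENCODE places at chr11:65277654-65365798, and it shares 0 bases with the exons of that gene. Its upstream end lay 2017 bases downstream of the Gm12295 start at 65365798, and that start lay 40.1 kb beyond the end of the interval. RefSeq gives Gm12295 a shorter span that starts at 65287833, 75.9 kb from the upstream end of MSTRG.14002, and no listed feature overlaps that span. The interval and MSTRG.14002 are listed on the same strand, with log2 ratios of -3.27 for the sum of the interval and 0.18 for MSTRG.14002. MSTRG.14003, listed on the plus strand over bases of MSTRG.14002, had 0.0377 CPM in FOG2_OE, against 0.0805 CPM in WT. Per length MSTRG.14003 stood at 0.176 CPM per kb in FOG2_OE and 0.376 in WT, against 10.1 and 8.95 for MSTRG.14002. How reads were assigned between them was not tested. Without MSTRG.14002 the flanks summed to 1.16 CPM in both groups.

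Neither protein-coding gene had a listed feature over its body within the window. Map2k4 (chr11:65688244-65788359) begins 38.2 kb from the interval at its near end and had 0 features. RefSeq lists a start of Map2k4 at 65788359, 138 kb away, and another nearer to the interval at 65745856. Myocd (chr11:65173608-65269989), whose start lies 136 kb from the interval, had 7 features over its body, all outside the window and listed on the plus strand, opposite to the gene. Of these, 2 passed as lower in the authors' deposited table. MSTRG.13995 stood at 0 in FOG2_OE and 0.0731 CPM in WT, at least 5.78-fold lower (authors' deposited table, adjusted p = 0.0048). MSTRG.13998 stood at 0 in FOG2_OE and 0.0513 CPM in WT, at least 4.06-fold lower (adjusted p = 0.0247 in the authors' deposited table). With an F reference with 10 residual degrees of freedom neither passed (adjusted p = 0.125 and 0.193). The most abundant of the 7, MSTRG.13997, had 0.304 CPM in FOG2_OE, against 0.223 CPM in WT (log2 ratio 0.45, implied SE 0.45). The table lists noncoding features, and the mRNA levels of Myocd and Map2k4 were not analysed here.

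Features linked to Myocd and to genes of the pathways of Myocd and Map2k4 were mostly not called. A feature was linked when it overlapped a gene or, if intergenic, had its nearest start within 100 kb. Of 62 features of 14 genes around myocardin and SRF, 4 passed as lower (6.45%) and 1 as higher (1.61%) in the authors' deposited table, near the 4.65% and 1.16% of all features. Myocd itself held 11 of the 62, of which 4 are flank features, and without these 11 there were 2 lower and 1 higher of 51. The median log2 fold change of all 62 was 0.03 in the authors' deposited table, against -0.21 over all features. The lower ones were the 2 over Myocd and 2 linked to Nppb, which encodes B-type natriuretic peptide. MSTRG.62122 near Nppb had 0.286 CPM in FOG2_OE, against 3.96 CPM in WT, 13.8-fold lower (authors' deposited table, adjusted p = 4.2e-13). MSTRG.62113 had 0.0209 CPM in FOG2_OE, against 0.317 CPM in WT, 15.2-fold lower (adjusted p = 6e-05 in the authors' deposited table). Nppb had 15 linked features in all, with a median log2 fold change of 0.42. Over the same bases on the listed minus strand, MSTRG.62121 spans MSTRG.62122, with 0.500 CPM in FOG2_OE, against 0.282 CPM in WT. MSTRG.62114, inside MSTRG.62113, had 0.270 CPM in FOG2_OE, against 0.168 CPM in WT, and neither minus-strand feature was called. The higher one, MSTRG.43342 linked to the smooth muscle actin gene Acta2, had 0.221 CPM in FOG2_OE, against 0.00433 CPM in WT, about 1 count over the WT group (adjusted p = 1.2e-06 in the authors' deposited table). The features of Srf, Mrtfa, Mrtfb, Tagln, Cnn1 and Myh11 gave no call in the authors' deposited table.

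Of 98 features of 18 genes of the stress kinase cascade, 2 passed as lower (2.04%) and 0 as higher in the authors' deposited table, against 4.65% and 1.16% of all features. Their median log2 fold change was -0.23 in the authors' deposited table. The lower ones were MSTRG.59386, 1 of 42 features linked to the transcription factor gene Jun, and 4930429D17Rik, linked to the JNK gene Mapk10. MSTRG.59386 had 0.106 CPM in FOG2_OE, against 0.329 CPM in WT, 3.10-fold lower (adjusted p = 0.0483 in the authors' deposited table). 4930429D17Rik stood at 0 in FOG2_OE and 0.0437 CPM in WT, at least 3.45-fold lower (adjusted p = 0.0409 in the authors' deposited table). With the median ratio centred at 1 neither passed (adjusted p = 0.117 and 0.0597). Map2k4, Map2k7, Map2k6 and Mapk14 had no listed feature.

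Markers of the cell types that a left atrium can hold were read through linked features in the same way. In the authors' deposited table, where 4.65% of all features were lower and 1.16% higher, cardiomyocyte markers had 10 features lower (6.58%) and 3 higher (1.97%) of 152. Smooth muscle markers had 2 lower (11.8%) and 1 higher (5.88%) of 17, and 11 of the 17 were those linked to Myocd, both lower ones included. Nodal and conduction markers had 0 lower and 8 higher (36.4%) of 22, linked to 3 of the 5 genes of that list. Features linked to the same gene cannot be counted as separate observations. Endothelial, fibroblast, macrophage and lymphocyte, adipocyte and neuronal markers had 0 called of 13, 34, 6, 15 and 5 features in the authors' deposited table. The cardiomyocyte features together had 100 CPM in FOG2_OE, against 144 CPM in WT, and no feature was listed for Myh6. The nodal features together had 8.89 CPM in FOG2_OE, against 2.06 CPM in WT, with none listed for Shox2 or Isl1. The smooth muscle features added up to 186 CPM in FOG2_OE, against 164 CPM in WT, most of it MSTRG.14002, which is linked to Myocd; without the features linked to Myocd they added up to 0.655 CPM in FOG2_OE, against 0.454 CPM in WT. The part of these markers in the levels of the interval was not tested.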

How the data were processed

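The members, their interval and the gene lists were chosen with earlier results of these data known. The submitters' processing notes list, without roles, the tools STAR, edgeR, deepTools and HTSeq in version 0.6.0, and mm10 as the build. The authors' deposited table holds for each of 34518 features its position, the log2 fold change (FOG2_OE over WT), the mean abundance as log2 CPM, the score of a likelihood ratio test, and p-values before and after adjustment over all features. Its 6 sample columns, a deposited signal on the scale of read counts, were fitted values of the authors' model: within a group they were constant multiples of each other (largest relative spread 1.8e-14). The edgeR quasi-likelihood test planned for counts was therefore not run, and the authors' comparison stands in its place. Labels do not say whether libraries came from separate animals, so that its p-values measure only the spread between these samples.

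Effective library sizes were computed from 718 features above 300 fitted counts in both groups. Levels are fitted sums per 1000000 of the effective library (CPM). For each feature the negative binomial dispersion that gives the deposited likelihood ratio was solved (ratios of at least 0.1, otherwise the median of features of like abundance) and gave the implied SE. The procedure was tested on simulated data for features of at least 20 fitted counts only. Folds against 0 use a floor of 3 counts over the group. Features were scarce, with a median of 7.22 fitted counts a library and 76.3% below 20, so that most features are imprecise; intervals and floors cover counting error only. Starts in the table count from 0 and are printed from 1. GENCODE M21 and RefSeq GRCm38.p6 share the build. No genome sequence was used, so that base composition of the features was not analysed.

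Features named in the text were the 12 of the interval most abundant in WT, the 6 with the smallest adjusted p, its ends, up to 4 abundant flank features on each side, those next to the threshold, and called features linked to the gene lists. Alternatives were a scale with the median ratio at 1, F references with 10 and 4 residual degrees of freedom, a filter at a mean of 10 fitted counts, a threshold of 0.01, the edge of the interval and leaving out the most abundant feature. Python 3.11.15, numpy 2.4.6, scipy 1.17.1, pandas 2.3.3 and matplotlib 3.10.9 were used.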

Additional observations from a re-analysis of the deposited data

How the results depend on the processing

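The 62 lower calls of the interval became 61 with the median ratio centred at 1, 42 with 10 residual degrees of freedom, 43 among features with a mean of at least 10 fitted counts and 56 at an adjusted p under 0.01. With 4 residual degrees of freedom the count was 0 for the F reference on the authors' likelihood ratio (smallest adjusted p 0.583; 63 passed with p under 0.05 before adjustment), where few degrees of freedom limit what can pass over all features. The flanks gave 0 calls under each of these settings, and for lower calls in the authors' deposited table this follows from how the interval was drawn. The summed level of the interval, FOG2_OE over WT, was 0.104, against 0.120 with the median ratio centred at 1 and 0.0716 without MSTRG.13903. That of the flanks was 1.13, against 1.31 when centred and 1.0013 without MSTRG.14002. Features wholly inside the interval were the same 65. Of the 27 named features of the window, MSTRG.13901 reversed when centred (log2 fold change 0.049), MSTRG.13878 lost its call (adjusted p = 0.0618), and 4 lost theirs with 10 residual degrees of freedom (adjusted p of 0.138 to 0.203). No paired analysis was possible because the sample columns hold fitted values and not counts. For the same reason no replicate could be left out and DESeq2 was not run.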
